A study of Mus musculus with 3 samples.

Results

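Voltage-gated calcium channels are described here through the accessible chromatin of their pore-forming subunit genes in dopaminergic neurons (DNs). The members are 9 of the alpha1 genes, namely Cacna1a, Cacna1b, Cacna1c, Cacna1d, Cacna1e, Cacna1g, Cacna1h, Cacna1i and Cacna1s. They were taken by name from 21755 protein-coding genes of the GENCODE M21 annotation. Their peaks are those of the pooled DN list that overlap a gene body or lie within 20 kb of it, which gave 214 of 55326 peaks (0.387%). Of these, 193 overlapped a gene body and 21 lay in a flank.

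The DNs came from single-nucleus ATAC-seq (snATAC-seq) of the midbrain ventral tegmental area (VTA) of male C57Bl/6Nl mice, in 2 libraries from mice aged 7 and 9 weeks, without any treatment or engineered allele. In snATAC-seq a transposase cuts open chromatin and a barcode marks each nucleus. Nuclei were sorted by scatter and DAPI signal, without a cell type marker, and the study's authors assigned them to the DN cluster afterwards from the inferred activity of Th and other marker genes, so that DNs here are a computed cluster of nuclei. The other sample of the series, mouse embryonic stem cells, is not analysed here.

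The list is 1 set of positions over both libraries, each 500 bp wide, with no height, score or count per peak. No spread between libraries can be taken from it, and no p-value is given. The 95% intervals below are exact Poisson intervals for numbers of peaks and exact binomial (Clopper-Pearson) intervals for shares. They cover counting error only and treat peaks as separate events, although 35 pairs of neighbouring peaks in the members have centres under 1 kb apart. The depth behind the list is not held in it, so a gene or start site without a peak is one where none is listed. By the study's methods, DN peaks were called as reproducible between pooled sets of DN nuclei, which also limits what is listed. The study's methods also describe keeping, for further analyses, peaks seen in a minimum share of nuclei. Whether that filter had been applied to this list is not given in the sources used here, so an unlisted site may also be one removed by it.

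The labelled cell type was checked against marker genes. All 9 DN markers (Th, Slc6a3, Ddc, Slc18a2, Foxa2, Lmx1b, Pitx3, Nr4a2 and En1) had a peak in the body and at a start site. The median DN marker was denser than 98.1% of genes of similar length, but Slc6a3, with 2 body peaks, was denser than only 62.9%. The check is not independent, because the cluster was chosen with Th and other marker genes. Of 14 markers of oligodendroglia, astrocytes, microglia and skeletal muscle, 5 had a peak in the body and 1 at a start site. The 5 were Cx3cr1 (microglia) with 9 body peaks, Mbp (oligodendroglia) with 6, Aldh1l1 and Gfap (astrocytes) with 5 and 2 and Acta1 (skeletal muscle) with 2. They were denser than 74.4% to 88.3% of genes of similar length. The Cx3cr1 peaks are those of a gene record of 168 kb. Mbp was the one with start peaks, at 3 of its 10 starts. The other 9, Olig2, Sox10, Mog, Aqp4, Csf1r, P2ry12, Myod1, Myf5 and Myog, had none in the body. By comparison, 63.8% of all protein-coding genes had a peak in the body and 56.4% at a start site. What part nuclei of other types have in the peaks below was not tested.

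The alpha1 subunit forms the pore and the voltage sensor of a calcium channel and sets its type. Cav1 (L-type) channels are encoded by Cacna1s, Cacna1c, Cacna1d and Cacna1f, Cav2 channels by Cacna1a (P/Q-type), Cacna1b (N-type) and Cacna1e (R-type), and the low-voltage-activated Cav3 (T-type) channels by Cacna1g, Cacna1h and Cacna1i. Cav1.3, the product of Cacna1d, opens at relatively negative potentials and is known for its part in the pacemaking of midbrain DNs, whereas Cav1.1, the product of Cacna1s, is the voltage sensor of excitation-contraction coupling in skeletal muscle. The remaining Cav1 gene, Cacna1f, known from retinal photoreceptors, is not a member and serves as a reference.

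The start regions of 5 members are shown first, to let starts with and without a peak be read side by side. CpG content did not divide them without exception, as given below with the start windows. The sequences are RefSeq start windows (GRCm38), read 5′ to 3′ in the direction of the gene and ended before the first annotated exon, so that no exon is included. Capitals mark CpG dinucleotides, which are dense in CpG islands. The first pair contrasts the gene known from pacemaking with the muscle gene. The Cacna1d window lies at chr14:30353487-30353736 (minus strand) before an internal start and holds 50 CpG, and the Cacna1s window lies at chr1:136052561-136052749 (plus strand) and holds 5.

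Cacna1d internal start: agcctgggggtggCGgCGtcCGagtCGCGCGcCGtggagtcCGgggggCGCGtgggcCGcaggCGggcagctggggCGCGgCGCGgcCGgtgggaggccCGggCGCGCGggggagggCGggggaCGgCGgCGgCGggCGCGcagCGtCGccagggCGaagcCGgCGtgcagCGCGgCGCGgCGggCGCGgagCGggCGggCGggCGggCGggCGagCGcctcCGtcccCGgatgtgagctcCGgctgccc
Cacna1s start: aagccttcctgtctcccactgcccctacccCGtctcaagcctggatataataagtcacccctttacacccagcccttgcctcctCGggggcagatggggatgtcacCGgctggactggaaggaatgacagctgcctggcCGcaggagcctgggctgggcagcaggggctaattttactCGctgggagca

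The next 3 windows belong to 1 gene, Cacna1c (minus strand), and show how its alternative starts differ. The outer start (chr6:119196419-119196659) and the innermost start (chr6:118757975-118758224) had no peak, and the start between them (chr6:119108574-119108745) had several.

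Cacna1c outer start: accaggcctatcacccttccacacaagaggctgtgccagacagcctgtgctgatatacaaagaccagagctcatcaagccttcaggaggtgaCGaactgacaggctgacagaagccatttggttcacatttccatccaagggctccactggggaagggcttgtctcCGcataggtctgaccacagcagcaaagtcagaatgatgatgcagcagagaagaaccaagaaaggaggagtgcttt
Cacna1c middle start: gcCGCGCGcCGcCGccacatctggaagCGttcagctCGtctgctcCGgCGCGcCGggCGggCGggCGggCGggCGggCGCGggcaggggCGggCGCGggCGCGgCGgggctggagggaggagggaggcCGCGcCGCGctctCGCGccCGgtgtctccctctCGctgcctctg
Cacna1c innermost start: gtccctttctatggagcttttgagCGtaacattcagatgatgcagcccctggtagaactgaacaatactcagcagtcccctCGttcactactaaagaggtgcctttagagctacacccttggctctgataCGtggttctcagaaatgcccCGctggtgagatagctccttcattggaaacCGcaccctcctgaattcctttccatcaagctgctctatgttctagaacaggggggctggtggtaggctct

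The last pair is Cacna1b (chr2:24763153-24763402, minus strand), whose only start region lay in a peak, and Cacna1i (chr15:80286988-80287237, plus strand), whose start had no peak although CpG dinucleotides were frequent there.

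Cacna1b start: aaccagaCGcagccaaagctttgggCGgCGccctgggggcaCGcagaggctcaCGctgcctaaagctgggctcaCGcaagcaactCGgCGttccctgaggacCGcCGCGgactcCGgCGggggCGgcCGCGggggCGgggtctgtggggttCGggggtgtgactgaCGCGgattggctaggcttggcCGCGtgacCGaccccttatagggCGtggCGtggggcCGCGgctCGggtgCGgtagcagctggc
Cacna1i start: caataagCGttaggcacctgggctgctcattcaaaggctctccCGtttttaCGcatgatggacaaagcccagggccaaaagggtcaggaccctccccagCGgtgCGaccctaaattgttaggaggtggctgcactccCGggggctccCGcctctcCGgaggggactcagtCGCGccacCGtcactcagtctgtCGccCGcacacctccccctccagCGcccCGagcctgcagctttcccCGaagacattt

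All 9 members had at least 1 peak in the body. This is close to the background, since 88.3% of the 5000 protein-coding genes of 50 kb or more also had one, and 92.9% had one in the body or within 20 kb. The members differed instead in how many peaks they carried for their length. Over 2.269 Mb of gene body the 9 genes held 85.1 peaks per Mb, with 62.0 for the median member, against a median of 22.0 over all genes of 50 kb or more (upper quartile 43.8). Because short genes reach high densities with few peaks, each member was set beside all protein-coding genes of 0.67 to 1.5 times its length. Of the 9 members, 8 lay above the median of genes of similar length and 7 above the upper quartile. Cacna1f, the alpha1 gene outside the members, is in none of these counts and had no peak in the body (upper bound 131 per Mb).

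**Figure D1:**
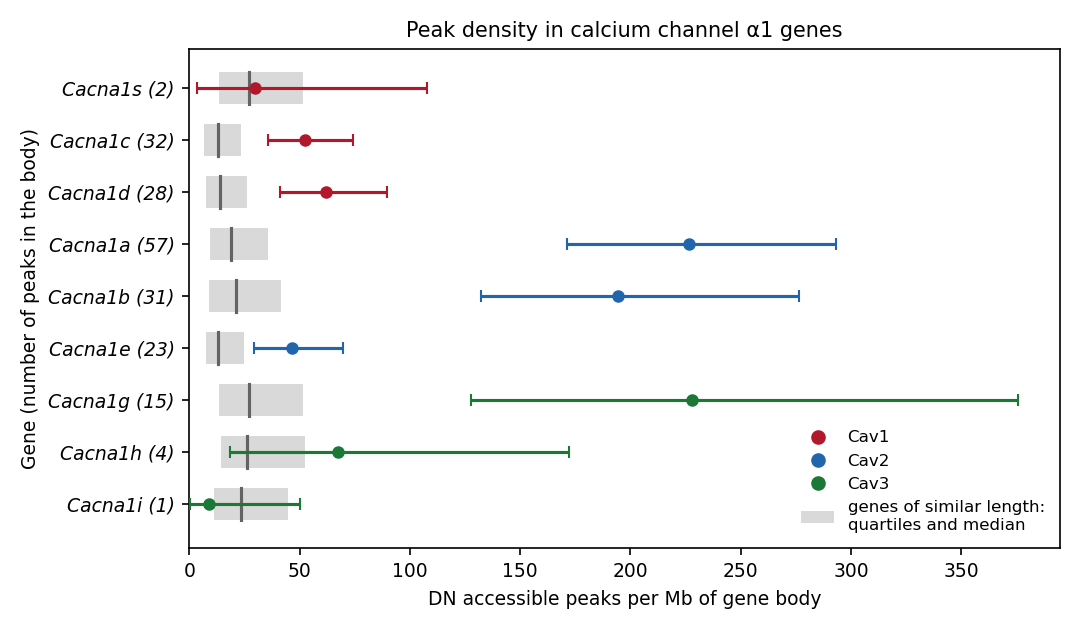
Peaks per Mb of gene body (x axis) for each member (y axis, number of body peaks in parentheses). Points are members coloured by channel family, bars are exact Poisson 95% intervals, and grey boxes with a dark line give the quartiles and median of protein-coding genes of similar length. Cacna1g, Cacna1a and Cacna1b stand at 228, 226 and 195 peaks per Mb, and Cacna1i at 9.01 lies below the lower quartile of its box (11.3).

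Among the Cav2 genes, which encode the channels of presynaptic terminals, the density was high in Cacna1a and Cacna1b and lower in Cacna1e. Cacna1a (ENSMUSG00000034656, chr8:84388440-84640246, plus strand, 252 kb) held 57 peaks, or 226 per Mb (95% interval 171 to 293). Only 5 of the 21755 protein-coding genes had more peaks in the body, and 1 of 844 genes of similar length was as dense or denser, against a median of 19.0 per Mb. Cacna1b (ENSMUSG00000004113, chr2:24603887-24763152, minus strand, 159 kb) held 31 peaks, or 195 per Mb (132 to 276), and was denser than 98.9% of genes of similar length. Cacna1e (ENSMUSG00000004110, chr1:154390731-154884501, minus strand, 494 kb) held 23 peaks, or 46.6 per Mb (29.5 to 69.9), which was above 88.5% of genes of similar length. Cacna1a was 4.86 times as dense as Cacna1e (2.95 to 8.27), and Cacna1b 4.18 times (2.36 to 7.51), so that both intervals lay above 1. Cacna1a and Cacna1b were not separable from each other, with a ratio of 1.16 (0.738 to 1.86).

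Among the Cav1 genes, Cacna1d and Cacna1c lay in the middle of the range of the members and Cacna1s near its lower end. Cacna1d (ENSMUSG00000015968, chr14:30039939-30491455, minus strand, 452 kb) held 28 peaks, or 62.0 per Mb (41.2 to 89.6), which was 4.40 times the median of genes of similar length and above 95.1% of them. Cacna1c (ENSMUSG00000051331, chr6:118587240-119196418, minus strand, 609 kb), the L-type gene of heart, smooth muscle and many neurons, held 32 peaks, or 52.5 per Mb (35.9 to 74.2), above 92.2% of its genes of similar length. Cacna1s (ENSMUSG00000026407, chr1:136052750-136119822, plus strand, 67.1 kb) held 2 peaks, both intronic (chr1:136076009-136076508 and chr1:136089525-136090024), or 29.8 per Mb (3.61 to 108), which was near the median of genes of similar length (27.2) and above 52.5% of them.

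The contrast of Cacna1d with Cacna1s can be put in 3 ways. Per Mb, Cacna1d was 2.08 times as dense, but with only 2 peaks in Cacna1s the interval ran from 0.524 to 18.0 and included 1. Beside genes of their own lengths, Cacna1d lay well above the median and Cacna1s close to it. At the start sites, Cacna1d had peaks at an internal start region and Cacna1s had none within 1 kb. This last contrast depends on the window, since at the GENCODE starts neither gene had a peak within 500 bp and both had one within 2 kb. The RefSeq start of Cacna1d at 30353486 lay inside a peak, whereas that of Cacna1s did not. Against the other 8 members as one set, Cacna1d was not the denser gene, with a ratio of 0.683 (0.440 to 1.02), and Cacna1a was 3.65 times as dense as Cacna1d (2.28 to 5.96). By density Cacna1d came below Cacna1g, Cacna1a and Cacna1b. It also came below Cacna1h (62.0 against 67.2 per Mb), but this order turned when a peak had to have its centre inside the body (62.0 against 50.4).

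The Cav3 genes spread over the whole range. Cacna1g (ENSMUSG00000020866, chr11:94408391-94474198, minus strand, 65.8 kb) held 15 peaks, or 228 per Mb (128 to 376), above 98.5% of genes of similar length. Cacna1h (ENSMUSG00000024112, chr17:25374285-25433783, minus strand, 59.5 kb) held 4 peaks, or 67.2 per Mb (18.3 to 172), above 80.8% of genes of similar length. Cacna1i (ENSMUSG00000022416, chr15:80287238-80398279, plus strand, 111 kb) held 1 peak, or 9.01 per Mb (0.228 to 50.2), and only 18.3% of genes of similar length were sparser. Cacna1g was 3.39 times as dense as Cacna1h (1.08 to 14.0) and 25.3 times as dense as Cacna1i, the latter with a wide interval of 3.89 to 1066 that rests on the single Cacna1i peak. Against Cacna1s, a gene of nearly the same length, the ratio of Cacna1g was 7.64 (1.78 to 68.9).

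In order of density the members ran Cacna1g, Cacna1a, Cacna1b, Cacna1h, Cacna1d, Cacna1c, Cacna1e, Cacna1s and Cacna1i. The first place is not fixed, since with peak centres inside the body Cacna1a had 226 per Mb and Cacna1g 213, and Cacna1a was also the denser gene with coding transcripts alone, without start peaks and with neighbouring peaks joined. Between neighbours in this order, only the step from Cacna1b to Cacna1h had an interval above 1 (ratio 2.90, 1.02 to 11.3), and it came close to 1. The other 7 steps had intervals that included 1. By family, Cav2 genes held 123 peaks per Mb (101 to 148), Cav3 genes 84.6 (51.7 to 131) and the Cav1 members, without Cacna1f, 55.0 (42.2 to 70.5). The spread within Cav2 and Cav3 was wider than the distance between families, from 46.6 to 226 per Mb in Cav2 and from 9.01 to 228 in Cav3. Density showed little relation to length or to the GC content of the body across the 9 genes, as a description (Spearman's rho −0.217 and 0.217), and the points share 1 list and its depth.

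**Figure D2:**
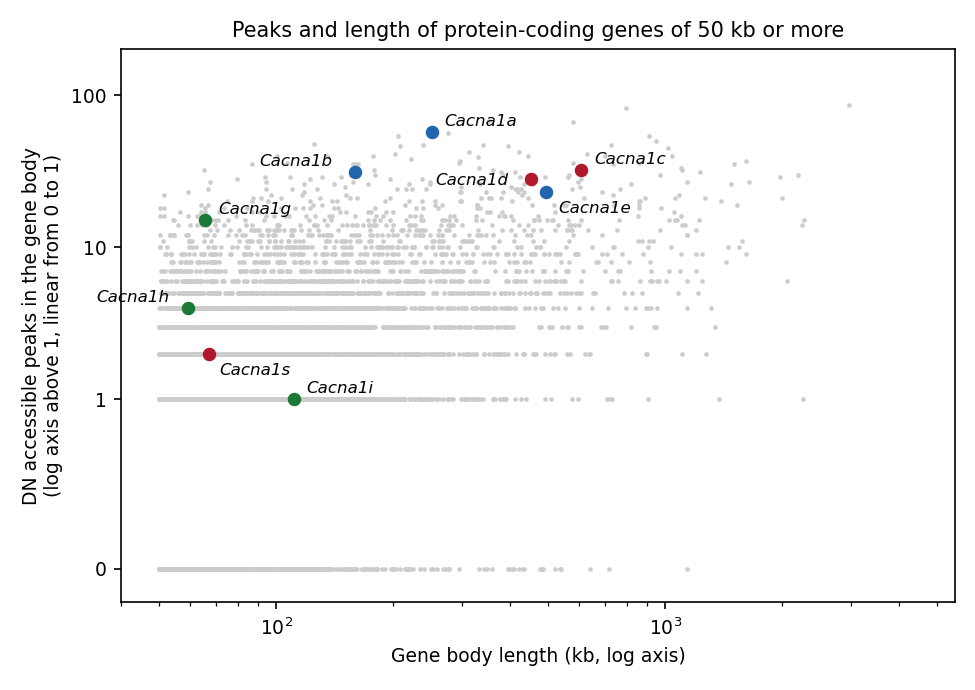
Number of DN peaks in the gene body (y axis, logarithmic above 1) against gene length (x axis, kb, logarithmic). Grey points are the other protein-coding genes of 50 kb or more, and members are red for Cav1, blue for Cav2 and green for Cav3. Cacna1a, with 57 peaks in 252 kb, lies at the upper edge of the cloud, and Cacna1i, with 1 peak in 111 kb, near its floor.

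Outside the gene bodies the members differed in a different order. No flank peak was found for Cacna1a and Cacna1e, 1 each for Cacna1b, Cacna1c, Cacna1d and Cacna1i, 2 for Cacna1h, 6 for Cacna1g and 9 for Cacna1s. The Cacna1s window thus held 11 peaks, but most of the flank peaks lay by other genes. Of the 6 downstream peaks, all overlapped Kif21b, a kinesin gene, or the adjoining non-coding gene Gm15850, and 2 of them were at the start of Kif21b (chr1:136131091-136131590 and chr1:136131644-136132143). Of the 3 upstream peaks, the nearest (chr1:136051399-136051898) had its centre 1102 bp before the outer Cacna1s start and also lay within 1 kb of a start of Ascl5, a basic helix-loop-helix factor gene. With peaks on or at the start of other protein-coding genes left out, 5 peaks remained for Cacna1s.

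For Cacna1g, 4 flank peaks lay upstream and 2 downstream. Of the upstream ones, 2 were in Spata20 and 1 in Epn3, and the nearest (chr11:94477624-94478123) had its centre at −3.68 kb relative to the outer start. The Cacna1h flank peaks lay 2.39 kb and 10.4 kb past the end of the gene, the nearer one in Tpsg1, a mast cell protease gene. The Cacna1d flank peak was in Chdh, the choline dehydrogenase gene, and that of Cacna1b was at the pseudogene Gm13416.

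Within the bodies, the peaks of most members were spread along the gene. With each body divided into 3 equal parts from the 5′ end, the members held 71, 58 and 64 peaks, or 36.8%, 30.1% and 33.2%. In all genes of 50 kb or more the same shares were 44.0%, 24.9% and 31.2%. Of the members with 15 or more peaks, Cacna1d had the smallest share in the first part, with 6 of 28 peaks there, 10 in the middle and 12 in the last, whereas Cacna1g had 8 of 15 in the first. The parts are taken from the outer end of the gene record, which is not the accessible start in every member. In Cacna1d most of the first part lies before the accessible start, which is 138 kb from that end. Of its 6 peaks, 2 were at this internal start and 1 at the start of Dcp1a.

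**Figure D3:**
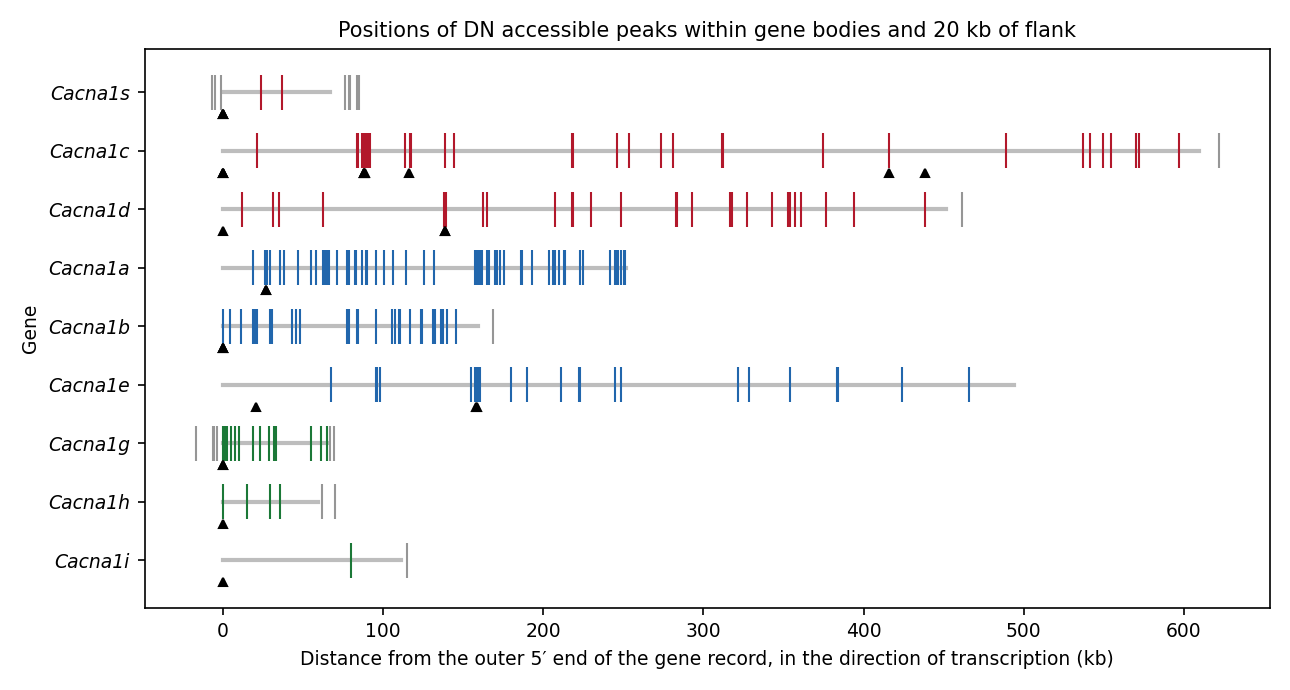
Positions of peaks along each member (y axis) as distance from the outer 5′ end of the gene record in the direction of transcription (x axis, kb). Grey bars are gene bodies, coloured ticks are body peaks (red Cav1, blue Cav2, green Cav3), grey ticks are peaks within 20 kb, and black triangles are annotated starts. Cacna1a carries ticks along most of its length, and groups of ticks coincide with internal starts 88 kb into Cacna1c and 138 kb into Cacna1d.

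The median distance between neighbouring peak centres was 2.51 kb in Cacna1a, 2.61 kb in Cacna1b and 3.26 kb in Cacna1g, and 10.9 kb in Cacna1d, 10.8 kb in Cacna1e and 7.76 kb in Cacna1c. The longest stretch without a peak was 25.5 kb in Cacna1a (between centres at 84520276 and 84545824), about 10.2% of the gene. In Cacna1d it was 75.3 kb, from 30353565 in the internal start region to 30428894 in the direction of the outer start. Cacna1c and Cacna1e had similar stretches of 73.3 kb and 73.2 kb. In Cacna1i the stretch ran from the start to the only body peak, over 79.8 kb or 71.9% of the gene.

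Start sites were taken from transcripts of the basic GENCODE set, and a start was called accessible when a peak centre lay within 1 kb. By this rule 7 of the 9 members had a peak at a start site, which is near the background of 75.2% of protein-coding genes of 50 kb or more. Cacna1i and Cacna1s were the 2 without one. Of 28 annotated start positions, 18 had a peak, and of 15 groups of neighbouring starts, 9 had one. If the outer 5′ end of the gene record alone was taken, the number of members fell to 3 (Cacna1b, Cacna1g and Cacna1h), because in the other 4 the accessible start lay inside the record.

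In Cacna1d the outer start at chr14:30491156 belonged to 1 transcript and had no peak. The nearest peak (chr14:30479329-30479828) was 11.6 kb inside the gene, at the start of Dcp1a, an mRNA decapping gene that begins in the Cacna1d body. The other 4 basic transcripts started at 30352991 and 30353009, 138 kb further in, where 2 peaks lay with centres 556 bp before (chr14:30353316-30353815) and 672 bp after (chr14:30352070-30352569) the nearest start. The RefSeq start at 30353486 fell inside the first of these peaks, which had 84.0% GC and 95 CpG, the highest CpG number of the 193 body peaks. The Cacna1d sequence printed above is the 250 bases before that start.

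Cacna1c showed the same arrangement with more starts. At its outer starts (119196231 to 119196418, 4 transcripts) no peak was called, and the first peak inside the gene, 21.2 kb from the outer end, lay at the start of Dcp1b, a paralogue of Dcp1a. The 12 transcripts that start between 119107975 and 119108573 had 4 peaks around them, including one of 80.0% GC and 87 CpG (chr6:119108375-119108874). A single start at 119080007 had 2 peaks, the start at 118780324 (4 transcripts) had 1, and the innermost start at 118757974 had none, its nearest peak being 22.5 kb away.

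The remaining members with an accessible start were simpler. In Cacna1e, 2 starts (154725920 and 154726356) had 3 peaks within 1 kb, and an outer start at 154864067 had none. In Cacna1a the 2 basic starts (84415364 and 84415377) lay 26.9 kb inside the gene record and had 3 peaks. Cacna1b had 1 peak over its starts (chr2:24763005-24763504, 57 CpG), Cacna1g 2 and Cacna1h 1 (chr17:25433610-25434109, 58 CpG).

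The RefSeq start table held 9 windows for 6 members, of 250 bases before and 50 after each start, and Cacna1a, Cacna1g and Cacna1h were not matched in it. Over all such windows 42.7% had a peak within 1 kb. The CpG ratio, the number of CpG observed over the number expected from the base composition, divided them: 85.0% of windows with a ratio of 0.6 or more had a peak, and 18.9% of those below. The median ratio was 0.766 in windows with a peak and 0.216 in windows without. Among the members, the windows with a peak were the internal Cacna1d start (ratio 1.18, 63 CpG), the middle Cacna1c start (1.16, 57 CpG), Cacna1b (0.922, 35 CpG) and Cacna1e (0.483, 11 CpG). Those without were the outer Cacna1d start (0.338, 4 CpG), the outer and innermost Cacna1c starts (0.152 and 0.355), Cacna1s (0.303, 9 CpG) and Cacna1i (0.794, 23 CpG). Cacna1i and Cacna1e were thus on the opposite sides of 0.6 from most windows of their kind.

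**Figure D4:**
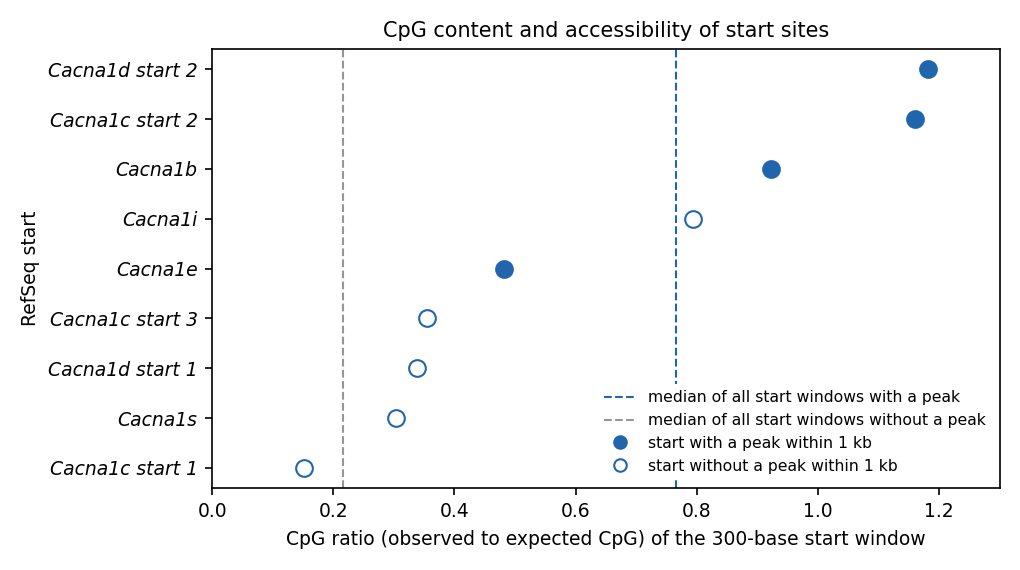
CpG ratio of 9 RefSeq start windows of 300 bases (x axis) for the 6 members in the start table (y axis, starts of a gene numbered from the outer end). Filled points have a peak within 1 kb, open points none, and dashed lines are the medians of all windows with (blue, 0.766) and without (grey, 0.216) a peak. Cacna1i is the open point to the right of the blue line.

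Most member peaks lay away from starts and in introns. Of the 193 body peaks, 21 (10.9%, 6.86 to 16.2) were centred no more than 1 kb away from a start of any protein-coding gene, against 26.2% of peaks in all bodies of 50 kb or more. Exons of protein-coding genes were overlapped by a further 28 (14.5%, 9.86 to 20.3, against 9.47%), and 144 (74.6%, 67.9 to 80.6, against 64.3%) were in introns only. The intervals of the first and last shares excluded the values of the larger set, and that of the exonic share also did, narrowly.

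Most exonic peaks were in the 2 dense Cav2 genes. In Cacna1a 12 of 57 peaks overlapped an exon (21.1%, 11.4 to 33.9), whereas 11.1% of all positions for a 500-bp peak along the gene would touch one. In Cacna1b the number was 11 of 31 (35.5%, 19.2 to 54.6), against 19.5% of positions. In Cacna1d it was 1 of 28, against 7.14% of positions, and in Cacna1e 1 of 23, against 7.94%. In Cacna1c it was 6 of 32 (18.8%, 7.21 to 36.4), against 6.47% of positions, and in Cacna1g 5 of 15 (33.3%, 11.8 to 61.6), against 33.7%. For Cacna1c the interval lay above the share of positions and for Cacna1a narrowly so, for Cacna1b it included it narrowly, and in Cacna1g the 2 shares were nearly equal. Of the 6 exonic peaks of Cacna1c, 4 were at starts. Exonic peaks away from starts were 10 of all 57 body peaks in Cacna1a (17.5%, 8.75 to 29.9) and 10 of 31 in Cacna1b (32.3%, 16.7 to 51.4). In Cacna1c they were 2 of 32 (6.25%, 0.766 to 20.8). Body peaks away from starts numbered 54, 30 and 24 in these genes. Each interval included the share of positions, but these totals and the shares of positions both take in the starts. In the transcripts with the longest coding sequence, peaks touched 15 of 47 exons of Cacna1a and 11 of 47 of Cacna1b.

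Among exonic peaks away from starts, those over exons 19 and 47 of Cacna1a held more CpG than the mean of member peaks at starts (36.6). The others held fewer than that mean. In Cacna1a the peak over exon 19 (chr8:84559254-84559753) had 76.8% GC and 85 CpG, more than any of the 3 peaks at its starts (57, 55 and 32 CpG). The peak over its last exon, exon 47 (chr8:84639380-84639879), had 78 CpG, and the one over exon 46 (chr8:84638480-84638979) had 33. In Cacna1b, 2 neighbouring peaks overlapped exon 19 (chr2:24678492-24678991 and chr2:24679253-24679752), with 7 and 30 CpG. The only exonic peak of Cacna1d (chr14:30114955-30115454) overlapped exon 19 of 49 and had 7 CpG. Exons were numbered in each gene's own transcript, and whether equal numbers are homologous exons was not tested.

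Base composition set the starts apart from the rest. Member peaks within 1 kb of a start had 62.4% GC ± 10.5 (SD, n = 21 peaks) and 36.6 CpG on average, and those further away 50.8% ± 5.14 (n = 172) and 7.98 CpG. Peaks of all long bodies away from starts had 48.9% ± 6.34 (n = 16357) and 8.31 CpG.

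Short motifs were searched on both strands, of factors known from DNs or from neuronal activity and, for the GC box and CTCF, of more general factors. They were NBRE (AAAGGTCA, bound by nuclear receptors such as Nr4a2), a forkhead core (TGTTTAC), an Otx and Pitx core (TAATCC), the cyclic AMP response element (TGACGTCA), AP-1 (TGANTCA), a GC box (GGGCGG) and the CTCF consensus. No copy of TGACGTCA contains TGANTCA. Over the 172 member peaks away from starts, the share with NBRE was 3.49% (1.29 to 7.44), against 5.50% in all long bodies, and the share with the forkhead core was 6.98% (3.66 to 11.9), against 9.64%. For TAATCC it was 15.1% (10.1 to 21.4) against 16.2%, for TGACGTCA 1.16% (0.141 to 4.14) against 0.691%, and for TGANTCA 19.2% (13.6 to 25.9) against 15.2%. For GGGCGG it was 16.9% (11.6 to 23.3) against 12.9%, and for CTCF 4.07% (1.65 to 8.21) against 5.14%. Each of the 7 intervals included the value of the larger set. Over all 55326 peaks the shares were 4.00% for NBRE, 7.22% for the forkhead core, 13.6% for TAATCC, 1.51% for TGACGTCA, 12.3% for TGANTCA, 32.3% for GGGCGG and 5.25% for CTCF.

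By gene, the Cacna1d peaks held no forkhead core (0 of 28, upper bound 12.3%), and TGANTCA was found in 13 of 57 Cacna1a peaks, 8 of 31 Cacna1b peaks, 5 of 28 Cacna1d peaks and 2 of 32 Cacna1c peaks. All 6 NBRE matches in the bodies are printed, chosen for the motif because Nr4a2 is a defining factor of DNs. They are read in the direction of the gene, with the motif or its complement in capitals.

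Cacna1a (chr8:84423889-84423947, plus strand): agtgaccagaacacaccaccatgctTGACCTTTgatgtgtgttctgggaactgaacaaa
Cacna1b (chr2:24733839-24733898, minus strand): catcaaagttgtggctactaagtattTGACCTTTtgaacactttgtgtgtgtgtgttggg
Cacna1b (chr2:24646228-24646287, minus strand): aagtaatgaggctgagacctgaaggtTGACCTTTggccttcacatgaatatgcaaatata
Cacna1c (chr6:119112639-119112698, minus strand): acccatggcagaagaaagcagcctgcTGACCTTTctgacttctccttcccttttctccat
Cacna1d (chr14:30138678-30138737, minus strand): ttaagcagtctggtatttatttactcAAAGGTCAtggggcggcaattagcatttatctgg
Cacna1i (chr15:80367034-80367093, plus strand): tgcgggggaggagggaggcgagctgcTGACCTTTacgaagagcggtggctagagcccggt

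The matches of Cacna1a, Cacna1c, Cacna1d and Cacna1i were in introns, 35.7, 83.6, 353 and 79.8 kb from the outer start. For Cacna1i the match was in its only body peak, and the peak 4.11 kb past the end of the gene (chr15:80402142-80402641) also held 1. A match is a match of letters, and binding was not measured.

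Genes of the auxiliary subunit families were counted in the same way. The beta and alpha2delta subunits bind the alpha1 subunit and set its trafficking and gating, whereas many genes of the gamma family encode partners of AMPA receptors. Of the 16 genes of the beta, alpha2delta and gamma families, 14 had a peak in the body and 12 at a start site. These counts are near the shares of genes of 50 kb or more (88.3% and 75.2%) and above those of all protein-coding genes (63.8% and 56.4%), and the list holds both long and short genes. The median density was 75.9 per Mb, and 14 of the 16 lay above the median of genes of similar length. All 4 beta genes had peaks in the body and at a start. Cacnb1 held 8 (372 per Mb, 160 to 732), Cacnb3 4 (292, 79.6 to 748), Cacnb4 12 (48.3, 25.0 to 84.4) and Cacnb2 16 (41.6, 23.8 to 67.5).

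Among the alpha2delta genes, which encode extracellular subunits that promote surface expression, Cacna2d2 held 21 peaks (162 per Mb, 100 to 247), above 98.0% of genes of similar length. Cacna2d3 held 26 (31.8, 20.8 to 46.6), Cacna2d4 9 (77.7, 35.5 to 147) and Cacna2d1 7 (15.9, 6.40 to 32.8). Cacna2d1, with 4 of 4 starts accessible, was near the median of its genes of similar length (14.4), and Cacna2d4 had no peak at either start. In the gamma family 6 of 8 genes had a body peak. Cacng2 (stargazin), known mainly as such a partner, held 13 peaks (101 per Mb, 54.0 to 173), and Cacng1, the skeletal muscle gamma gene, and Cacng6 held none. Both are short (13.3 and 11.5 kb), and their upper bounds of 277 and 322 per Mb lie above the densest gamma gene, Cacng8 (200.3 per Mb).

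**Figure D5:**
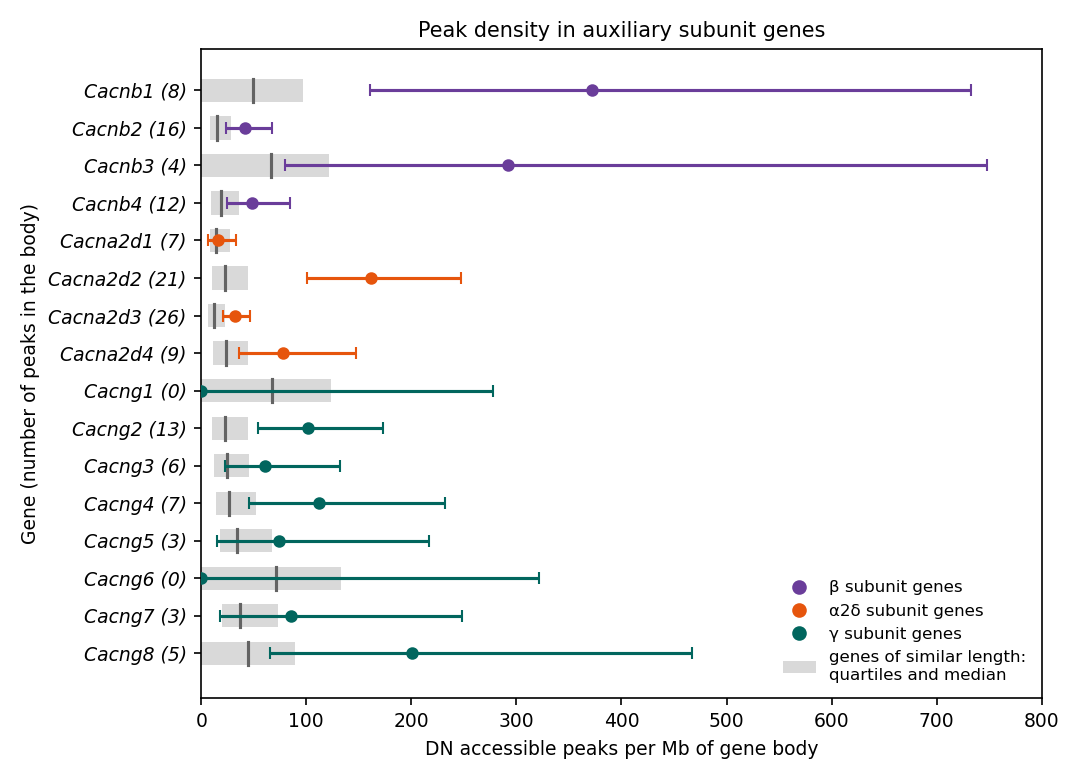
Peaks per Mb of gene body (x axis) for the 16 auxiliary subunit genes (y axis, number of body peaks in parentheses), with exact Poisson 95% intervals, and quartiles and median of protein-coding genes of similar length in grey. Cacnb1 and Cacna2d2 stand at 372 and 162 per Mb, and Cacng1 and Cacng6 have no peak in the body.

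Genes of the skeletal muscle excitation-contraction apparatus gave a reference for Cacna1s. Of the 8 genes (Cacna1s, Cacng1, Cacnb1, Ryr1, Stac3, Jph1, Jph2 and Casq1), 7 had a peak in the body and 3 (Cacnb1, Stac3 and Jph1) at a start site, against 63.8% and 56.4% of all protein-coding genes. Ryr1, the calcium release channel that Cav1.1 gates in muscle, held 4 peaks (32.8 per Mb, 8.95 to 84.1) and none at a start. Jph1 held 4 (30.0 per Mb), Jph2 4 (64.8), Casq1 1 (100.3) and Stac3 3 (420.3), so that the list spread from none in Cacng1 to the high densities of the short genes Stac3 and Cacnb1. Cacna1s (29.8 per Mb) lay beside Jph1 and Ryr1 at the lower end. Several of these genes are also used outside muscle, Cacnb1 among them. Cacna1f (28.1 kb, X chromosome) held no peak in the body, with an upper bound of 131 per Mb, and 4 within 20 kb.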

How the data were processed

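The authors isolated nuclei from frozen midbrain VTA, mapped snATAC-seq reads to mm10 (Cell Ranger ATAC), excluded doublets by a DAPI gate and again with ArchR, clustered nuclei and called peaks with ArchR, pooling both DN libraries in 1 list. The deposited list used here holds positions (chromosome, start, end) of 55326 peaks without counts, signal or scores. Reads and signal of these libraries were not used here. Thus fixed-width peaks and the depth of the DN cluster limit what can be called and how many peaks an open region gives. Starts in the deposited list were read as counted from 0 and are printed counted from 1.

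Gene bodies and starts were taken from GENCODE M21, start windows from RefSeq and sequence from GRCm38, which has the chromosome sequences of mm10. A peak that shared 1 bp or more with a body was assigned to it. Genes of similar length were all protein-coding genes of 0.67 to 1.5 times the length, on the 20 chromosomes with peaks. Ratios have exact conditional 95% intervals. The members and gene lists were chosen with earlier results of these data known. Named peaks were those at starts, in exons, outermost or at the ends of the longest stretch without a peak. The peaks with an NBRE match and the other flank peaks were added after their values were seen. Counting was tested on simulated peaks. Alternatives changed the overlap rule, gene record, flank, start window and set of similar genes. Python 3.11.15 was used with numpy 2.4.6, pandas 2.3.3, scipy 1.17.1, pysam 0.24.0 and matplotlib 3.10.9.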

Additional observations from a re-analysis of the deposited data

How the results depend on the processing

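No paired analysis was possible because the analysis used the peak list alone, in which both DN libraries are pooled, and for the same reason no library could be left out. With the outer end of the gene record as the only start, 3 members had a peak at a start in place of 7. Joining peaks with centres under 1 kb apart, an alternative added after the data were seen, lowered the density over all members from 85.1 to 69.6 per Mb and the Cacna1a count from 57 to 47, with no gene of similar length as dense. The Cacna1s window held 4 peaks with a flank of 5 kb and 19 with 50 kb. With a start window of 2 kb Cacna1s also had a start peak (8 members), and with 500 bp Cacna1d had none (6 members). Of 215 values computed under an alternative, 206 stayed close to the main one, within 1.5 times for counts and inside the 95% interval of the main value for densities, ratios and shares. The list has no score, so no stricter peak threshold was tried, and weak accessibility cannot be told apart from none.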
